A study of Mus musculus with 21 samples.

Results

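Globin genes encode the protein chains of haemoglobin, and 7 of them were followed here through 7 sorted haematopoietic fractions of C57BL/6 mouse marrow: the adult alpha genes Hba-a1 and Hba-a2, the adult beta genes Hbb-bt and Hbb-bs, the embryonic alpha-like gene Hba-x (zeta) and the embryonic beta-like genes Hbb-bh1 and Hbb-y. A probe belonged to the set when the RefSeq accession that the array files give for it names 1 of these genes. By that rule 9 of 41174 probes were found, for 5 of the 7 genes and of 18217 genes named on the array: 1 probe each for Hba-a1 (A_52_P278538), Hba-x (A_51_P204053) and Hbb-y (A_51_P350058), 4 for Hbb-bt (probe 1, A_51_P374468; probe 2, A_51_P374476; probe 3, A_52_P213909; probe 4, A_52_P260346) and 2 for Hbb-bh1 (probe 1, A_51_P179672; probe 2, A_52_P305876). No probe carried an accession of Hba-a2 or Hbb-bs.

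Each fraction was measured on 3 arrays of 1 colour, 21 arrays in all. Per the labels, KLS cells, the most immature, lacked lineage antigens and carried Kit and Sca1. PreMegE, CFUe, PreGM and GMP carry the same KLS markers in the labels and are set apart by CD150, CD105 and Fc gamma receptors: PreMegE positive for CD150 and negative for the others, GMP negative for CD150 and positive for the receptors. CFUe and PreGM have the same label markers, negative for all of these, so that only the fraction names separate them. Ter119 cells were CD71 and Ter119 positive, and Mac1Gr1 cells were Mac1 and Gr1 positive. In RNA the match to these labels was not complete. On the log2 scale explained below, Ly6a, the gene of Sca1, stood at 2.57 in KLS, 2.10 in GMP, -0.31 in PreGM and -5.81 in CFUe. Eng, the gene of CD105, stood at 2.07 in KLS, 2.47 in CFUe, 1.68 in PreGM and 0.19 in GMP. After KLS, the erythroid side runs over PreMegE and CFUe to Ter119, and the myeloid side runs over PreGM and GMP to Mac1Gr1. No fraction carried a transgene or a treatment. The sources used here do not tie the arrays to separate animals, so p values measure the spread between these samples.

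As background, haemoglobin is a tetramer of alpha-like and beta-like chains with a haem in each. The alpha-like genes lie together on mouse chromosome 11 and the beta-like genes on chromosome 7, where distant enhancers drive them in erythroid cells through GATA1, KLF1, TAL1 and NF-E2. Hbb-y, Hbb-bh1 and Hba-x are used by the primitive red cells of the embryo and are largely silenced in definitive red cells, a silencing in which BCL11A, SOX6 and other repressors take part. Hba-a1 and Hba-a2 are near-identical copies, as are Hbb-bt and Hbb-bs in this strain. A probe of one copy can therefore pick up the other, and probes of related beta-like genes can cross-hybridise; the probes' own sequences were not used here. Each probe is described by itself and no probe's level is set against that of another.

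The stretches just before the transcription start of 4 of these genes are shown because they cover both adult chain types, an embryonic gene whose probe rose in Ter119 cells and an embryonic gene whose probe stayed near background. Each is the 120 bases before the start, 5′ to 3′ on the strand of the gene, from RefSeq on GRCm38.p6. Capitals mark CACCC (the box read by KLF1 and related factors), the CCAAT box, the letters ATAAA found in TATA boxes and the letters GATAA read by GATA factors, on either strand.
Hba-a1, chr11:32283552-32283671, plus strand: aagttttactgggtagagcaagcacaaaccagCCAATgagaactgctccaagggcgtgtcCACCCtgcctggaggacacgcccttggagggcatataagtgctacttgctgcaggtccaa
Hbb-bt, chr7:103813924-103814043, minus strand: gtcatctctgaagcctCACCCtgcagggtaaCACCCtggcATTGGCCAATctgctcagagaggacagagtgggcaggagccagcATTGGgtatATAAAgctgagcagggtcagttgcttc
Hbb-y, chr7:103853208-103853327, minus strand: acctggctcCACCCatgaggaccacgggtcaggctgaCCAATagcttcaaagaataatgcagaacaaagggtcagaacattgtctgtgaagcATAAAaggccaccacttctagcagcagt
Hba-x, chr11:32276480-32276599, plus strand: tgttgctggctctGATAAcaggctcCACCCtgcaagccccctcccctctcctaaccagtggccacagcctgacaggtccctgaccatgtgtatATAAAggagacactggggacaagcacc
Only these exact letters were searched for, so other forms of the boxes are not marked. Hba-a1 held CACCC 60 to 56 bases and CCAAT 88 to 84 bases before the start. It had no ATAAA, but its window holds the related letters tataag, which the search did not cover. Hbb-bt held CACCC in 2 places (104 to 100 and 89 to 85), CCAAT at 75 to 71 and, on the other strand, at 80 to 76 and 36 to 32, and ATAAA at 27 to 23. Hbb-y held CACCC from 111 bases before the start, CCAAT at 83 to 79 and ATAAA at 28 to 24. Hba-x held GATAA ending 103 bases before the start, CACCC at 95 to 91 and ATAAA at 27 to 23, and no CCAAT. In 120-base windows of all 32851 promoters of the table, CACCC stood in 31.7%, CCAAT in 21.3%, ATAAA in 20.2% and GATAA in 10.5%. The windows of the adult alpha pair were identical at 117 of 123 aligned positions, and the rest were gaps at the ends, since the annotated starts are offset. All bases that the alpha windows share were thus the same. Those of the adult beta pair were identical at 93 of 124 positions, where gaps also count as unlike. Hbb-bs alone among the 6 globin windows matched CCACACCC, the longer form that contains CACCC, which 1.84% of all promoters held. A promoter of Hbb-bh1 was not used here.

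Levels are log2 of the background-corrected intensity minus log2 of the 75th percentile of the same array, so a level of 0 is that percentile. Of the 9 globin probes, 8 passed the filter on dim probes, which asks for signal well above background in some fraction on each of its 3 arrays; Hba-x did not, and Hbb-bh1 probe 2 passed it through Ter119 alone, as did Hbb-bh1 probe 1. No globin spot was an outlier or saturated. "Called" means that the change reached 2-fold and its adjusted p was below 0.05. These p values come from limma and were adjusted by the Benjamini-Hochberg method across 29532 tested probes, and the number of arrays limits the precision. The signal at the 75th percentile lay between 196 and 292 in Ter119, 345 and 401 in Mac1Gr1, and 503 and 1010 in the other fractions. For each of the 21 arrays the closest other array came from the same fraction.

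**Figure D1:**
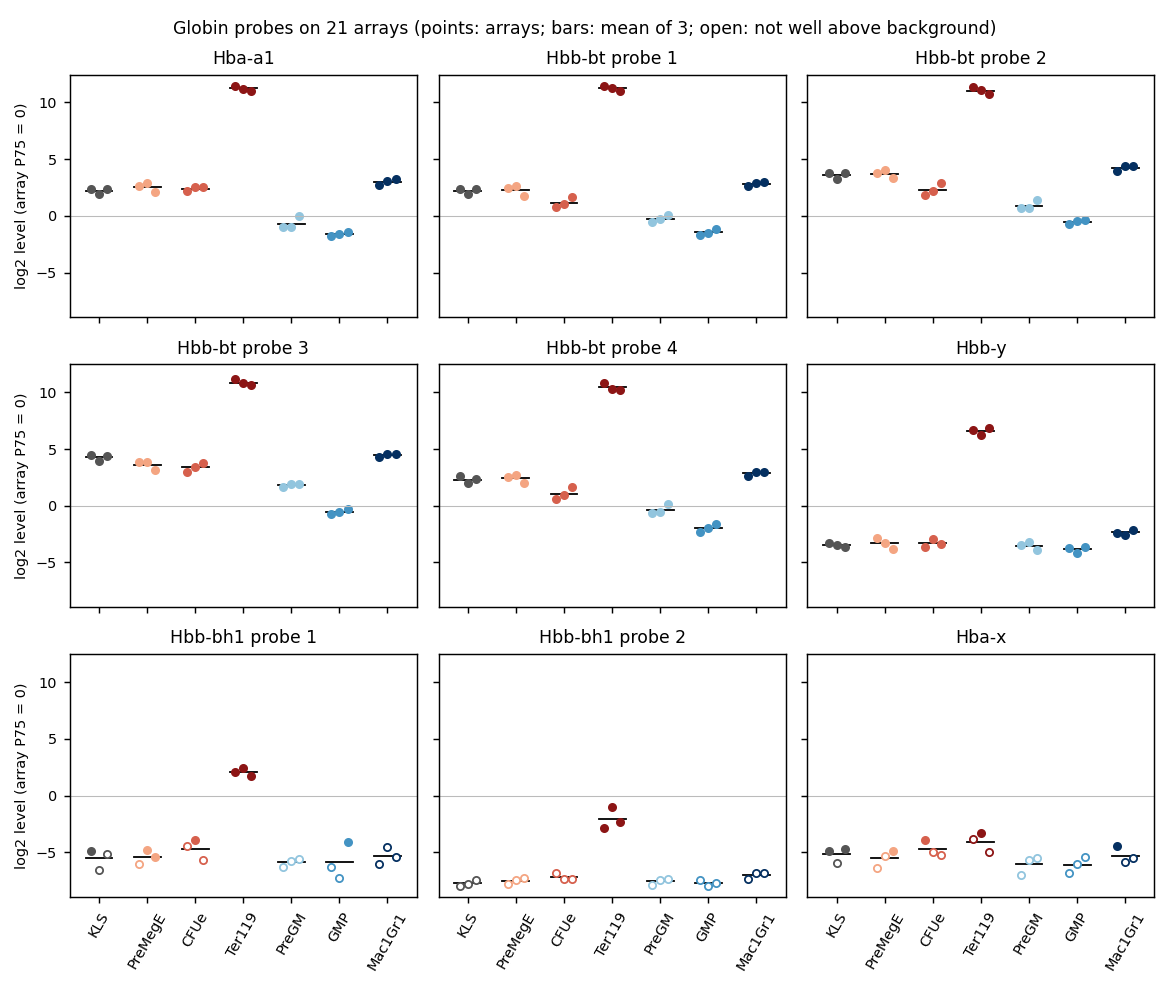
Level of each globin probe on every array; x axis, the 7 fractions; y axis, log2 level with the 75th percentile of the array at 0; bars, means of 3 arrays; open points, spots not well above background. The 5 adult probes were detected on all 21 arrays and stood above 10 in Ter119. Hbb-y and both Hbb-bh1 probes were highest in Ter119, and Hba-x stayed below -3 throughout.

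The adult alpha gene Hba-a1 was detected well above background on all 21 arrays, the myeloid ones included. In KLS its levels were 2.38, 1.91 and 2.35 in replicates 1 to 3, in PreMegE 2.65, 2.90 and 2.10, and in CFUe 2.16, 2.55 and 2.51. In Ter119 they were 11.49, 11.22 and 11.03. The 3 progenitor fractions of the erythroid side overlapped, and Ter119 stood far above all of them. On the myeloid side, Hba-a1 was at -1.0, -1.02 and -0.00 in PreGM and at -1.76, -1.60 and -1.40 in GMP. In Mac1Gr1 it was at 2.73, 3.10 and 3.24. On this scale PreGM and GMP were thus the lowest fractions, without overlap between them. The Mac1Gr1 arrays lay within or above the range of the erythroid progenitors on it.

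Hbb-bt probe 1, for the adult beta chain, gave 2.36, 1.92 and 2.36 in KLS, 2.42, 2.65 and 1.74 in PreMegE and 0.77, 1.09 and 1.64 in CFUe. Its Ter119 levels were 11.436, 11.293 and 10.998. Here CFUe was below KLS and PreMegE without overlap, unlike for Hba-a1. The myeloid levels were -0.54, -0.27 and 0.06 in PreGM, -1.68, -1.50 and -1.11 in GMP and 2.64, 2.94 and 2.96 in Mac1Gr1. On this scale Mac1Gr1 was therefore the second highest fraction for this probe, with PreMegE touching its range. That rank changed on the scale set by spiked-in RNA, as given below. On Hbb-bt probes 2 and 4 Ter119 was likewise the highest and GMP the lowest fraction: their means were 11.03 ± 0.31 and 10.43 ± 0.33 (SD, n = 3) in Ter119 and -0.54 ± 0.20 and -2.0 ± 0.35 in GMP.

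Hbb-bt probe 3 departed from the other 3 probes of that gene in the progenitors. It gave 4.5, 3.90 and 4.43 in KLS, 3.81, 3.89 and 3.16 in PreMegE and 3.01, 3.43 and 3.76 in CFUe. Its PreMegE arrays thus lay just below its KLS arrays (highest 3.89, lowest 3.90), a change under 2-fold, where those of the other 3 overlapped. Its PreMegE and CFUe arrays overlapped, where those of the others were separate. Whether the probes differ in these steps was not tested as such. In PreGM it gave 1.65, 1.88 and 1.95 and in GMP -0.73, -0.56 and -0.29. All 4 probes carry the same accession, and which part of the transcript, or which related transcript, each reads was not tested.

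Placed in order, the means of Hba-a1 fell from Ter119 (11.25) over Mac1Gr1 (3.02), PreMegE (2.55), CFUe (2.41), KLS (2.21) and PreGM (-0.67) to GMP (-1.58). Of neighbours in that order, Mac1Gr1 and PreMegE (difference 0.47 ± 0.26 SE, limma adjusted p = 0.11), PreMegE and CFUe (0.14 ± 0.26, 0.68) and CFUe and KLS (0.19 ± 0.26, 0.54) were not told apart. KLS and PreGM were separate at adjusted p = 6.9e-07, and PreGM and GMP at 0.016. For Hbb-bt probe 1 the order was Ter119 (11.24), Mac1Gr1 (2.85), PreMegE (2.27), KLS (2.21), CFUe (1.17), PreGM (-0.25) and GMP (-1.43). There only PreMegE and KLS were not told apart (0.06 ± 0.25, adjusted p = 0.89), while Mac1Gr1 and PreMegE differed by 0.58 ± 0.25 (adjusted p = 0.048), less than 2-fold.

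The first erythroid step, from KLS to PreMegE, was compared to ask whether adult globin transcripts rise with the earliest erythroid genes. No globin probe was called, in either direction, where 12.4% of all probes tested were; at an unadjusted p under 0.05 only Hbb-bt probe 3 differed (-0.66 ± 0.23, adjusted p = 0.044). Hba-a1 differed by 0.34 ± 0.26 (adjusted p = 0.38). In the same step the erythroid transcription factors rose: Klf1 by 4.62 ± 0.41 (adjusted p = 2.1e-07) and Gata1 by 4.45 ± 0.24 (5.7e-10), with Gata2 and Zfpm1, the partner of GATA1, also higher. Of 11 globin regulators tested, 5 were called higher and none lower, with a median change of 0.62 beside 0.13 over all probes. Of 13 red cell genes, 8 were higher and none lower (median 1.85), led by the blood group protein Kel (4.82), the sterol-binding protein Tspo2 (4.42) and Ermap (3.90). In the same comparison 11 of 12 macrophage genes fell, and the summed macrophage level went from 5.22 to 6.70 in KLS to 0.88 to 1.5 in PreMegE; the part of such cells in the KLS globin signal was not tested. In a bulk sample, fewer cells that hold a transcript and less of it per cell cannot be told apart.

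From PreMegE to CFUe, 3 of the 8 globin probes were called, all lower, where 24.7% of all probes were called (14.7% lower). They were Hbb-bt probe 1 (-1.10 ± 0.25, adjusted p = 0.0016), probe 2 (-1.40 ± 0.28, 0.00041) and probe 4 (-1.36 ± 0.29, 0.00091). Hbb-bt probe 3 (-0.22 ± 0.23, adjusted p = 0.44) and Hba-a1 (-0.14 ± 0.26, 0.68) were not called. On the only slide that held both fractions the difference was -1.33, -1.58, -0.38 and -1.63 for Hbb-bt probes 1 to 4 and -0.10 for Hba-a1. The call of Hbb-bt probe 1 was lost without replicate 2 of PreMegE (-0.91) or replicate 1 of CFUe (-0.90). Whether the alpha and beta probes differ in this step was not tested as such.

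Most red cell genes moved the other way in that step. Of 13, 10 were higher in CFUe and none lower, with a median change of 3.18 beside 0.12 over all probes. Rhd and Rhag, of the Rh complex of the red cell membrane, rose by 5.55 ± 0.30 and 4.54 ± 0.72, Trim10 by 4.27 ± 0.41 and the beta spectrin Sptb by 4.25 ± 0.81. Among 10 genes listed for haemoglobin assembly and care, a wider group than assembly factors alone, 5 were higher and 1 lower. The haem-binding protein Hebp1 rose by 4.0 ± 0.17, the biliverdin reductase Blvrb by 2.87 ± 0.28 and ferrochelatase (Fech), which inserts iron into protoporphyrin to make haem, by 2.55 ± 0.13. The nuclear exportin Xpo7 fell by 1.71 on the log2 scale. Of the regulators Klf1 rose further (1.7 ± 0.41), whereas Gata2 fell by 2.96 and Nfe2 fell by 1.65. Alas2, the erythroid form of the first enzyme of haem synthesis, was not called (-0.74 ± 0.29, adjusted p = 0.044), nor was the anion exchanger Slc4a1 (-0.16 ± 0.22, 0.57). So of these genes, the ones not raised in CFUe included Alas2 and Slc4a1 along with the adult globin probes.

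**Figure D2:**
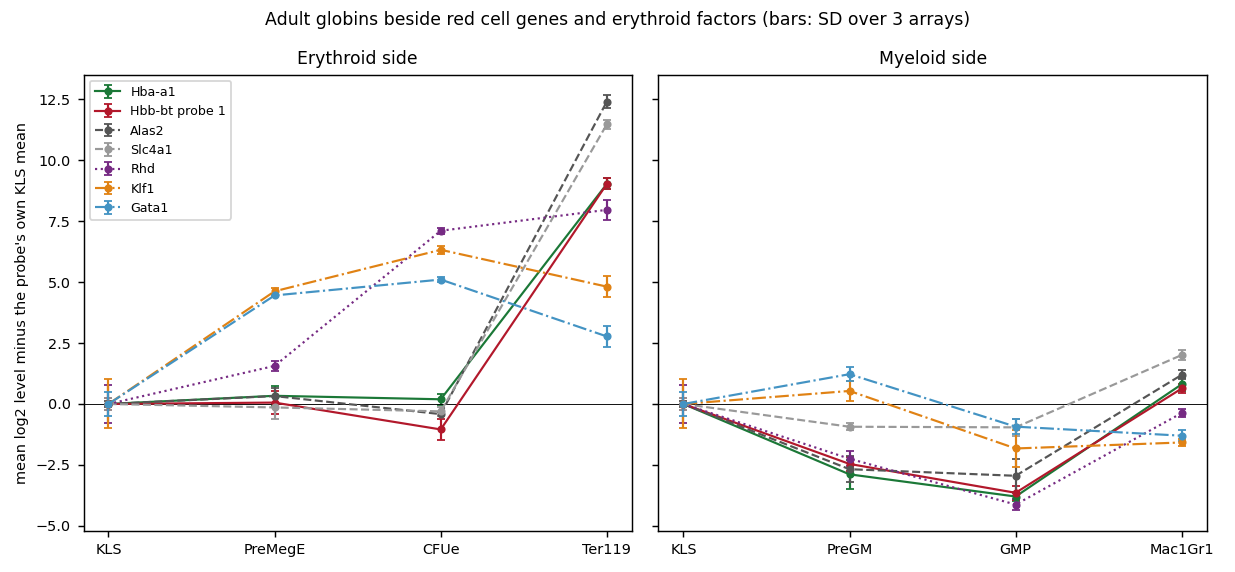
Mean level of each probe minus its own mean in KLS, on the erythroid (left) and myeloid (right) side; x axis, fractions; y axis, log2 units; bars, SD over 3 arrays. Klf1, Gata1 and Rhd were above their KLS means in PreMegE and CFUe, while on that side Hba-a1, Hbb-bt probe 1, Alas2 and Slc4a1 were called higher than in the step before in Ter119 and not in PreMegE or CFUe. On the right both globins and Alas2 were low in PreGM and GMP and above their KLS means in Mac1Gr1, where Alas2 and Slc4a1, but neither globin, were called higher than in KLS.

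Compared with KLS directly, CFUe had lower levels of Hbb-bt probes 1, 2 and 4 (-1.05 ± 0.25, -1.33 ± 0.28 and -1.26 ± 0.29, limma adjusted p between 0.00046 and 0.0018), 3 of 8 globin probes called beside 36.3% of all probes (19.1% lower). Hba-a1 did not differ detectably (0.19 ± 0.26, adjusted p = 0.54). When the slide was taken as a block none of the 3 was called, at -0.84, -1.04 and -1.03 (adjusted p = 0.095, 0.061 and 0.066), and on the slide shared by both fractions they differed by -0.72, -0.95 and -0.93.

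Between CFUe and Ter119 all 8 globin probes tested were called higher, where 57.2% of all probes were called and 29.2% were higher. The Hbb-bh1 probes had passed the filter through Ter119 itself, so their part in that count carries no weight. Hbb-bt probe 1 rose by 10.08 ± 0.25 (adjusted p = 4.5e-15), which is 1080-fold, Hbb-bt probe 4 by 9.38 ± 0.29, Hba-a1 by 8.84 ± 0.26, which is 458-fold, Hbb-bt probe 2 by 8.72 ± 0.28 and Hbb-bt probe 3 by 7.46 ± 0.23. On the slide that held both fractions, the 5 differences were 10.23, 9.57, 8.87, 8.84 and 7.59 in the same order. In Ter119 the median pixel signal of the adult probes stood at 43.4% to 70.2% of the scanner's saturation value, and at no more than 2.41% of it in any other fraction. The bright end was therefore close to the top of the scale, though not saturated, and whether this compressed the folds was not tested. The globin probes together held 5.12% to 7.27% of the summed signal of an array in Ter119 and 0.00141% to 0.0441% elsewhere.

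**Figure D3:**
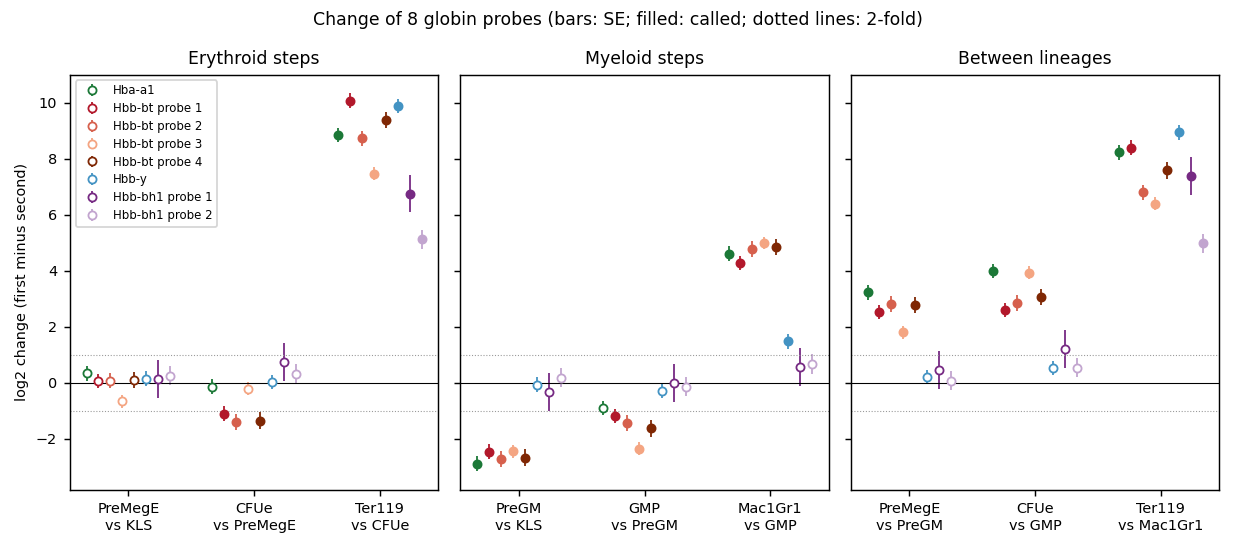
log2 change of 8 globin probes (first fraction minus second) for the erythroid steps, the myeloid steps and the comparisons between lineages; points, limma estimates; bars, SE; filled points, called; dotted lines, a 2-fold change. All 8 are filled for Ter119 against CFUe and against Mac1Gr1, where the points of Hbb-bh1 probe 2 are fitted values above the bounds of 7.02-fold and 6.39-fold, and the 5 adult probes lie between 4.28 and 4.99 for Mac1Gr1 against GMP.

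Most genes listed for haemoglobin assembly and care, and the other globins tested, rose in Ter119 as well. Of 10 assembly and care genes 7 were higher and 1 lower (median 2.55 beside 0.05 over all probes). Alas2 rose by 12.83 ± 0.29 and Bpgm, which makes the 2,3-bisphosphoglycerate that lowers the oxygen affinity of haemoglobin, by 7.22 ± 0.13. Xpo7 rose by 7.21 ± 0.12 and the mitochondrial iron importer Slc25a37 by 7.03 ± 0.14. All 4 other globins tested were higher. Hbq1b and Hbq1a, the theta globins, which lie inside the alpha cluster and just after it, stood at 4.09 ± 0.17 and 3.78 ± 0.25 in Ter119. Hbq1b rose by 7.55 ± 0.21 (adjusted p = 1.1e-14), and Hbq1a, not well above background in CFUe, was at least 402-fold higher (7.6e-10). Cytoglobin (Cygb) rose by 4.53 ± 0.37 and neuroglobin (Ngb) by 1.57 ± 0.31. Of 9 genes tested that lie in or beside the alpha cluster, 3 were higher, the theta pair and Stk10 (4.52), where 29.2% of all probes were higher. In that list 1 was lower (Ubtd2, -2.17), and the median of the 9 was 0.35. Nprl3, whose introns hold the alpha-globin enhancers, differed between mean levels of -0.72 and -0.45 and was not called. Beside the beta cluster lie olfactory receptor genes, of which 1 passed the filter: Olfr629, higher by 4.53 ± 0.85. Olfr629 and Hbq1a had passed the filter through Ter119 alone, so their direction and their part in these counts carry no weight.

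Of 13 red cell genes, 10 were higher in Ter119 than in CFUe and none lower (median 1.84), led by Slc4a1 (11.78 ± 0.22), Trim10 (5.89) and Epb42 (4.77), and all 13 were well above background on all 3 Ter119 arrays. The markers of other cells moved too. All 12 granulocyte genes tested were higher, with a median of 10.8 (10.3 with 1 gene at its bound), and their summed level was 12.2 to 12.5 in Ter119 and 12.4 to 12.6 in Mac1Gr1. All 6 B cell genes were higher, with summed levels of 6.59 to 7.12 in Ter119 and -0.90 to 1.32 in CFUe, and 8 of 12 macrophage genes were higher. The Ter119 fraction thus held transcripts of other lineages, and their part in the globin levels was not tested. In Mac1Gr1 the adult globin probes were 84.1-fold to 337-fold lower than in Ter119 (6.39 to 8.39 on the log2 scale, adjusted p at most 3.2e-12), and all 8 probes were called higher in Ter119 where 41.9% of all were called and 22% were higher. As before, the Hbb-bh1 probes were in that count only through their Ter119 signal, and 6 probes were detected on every array of both fractions.

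The embryonic beta-like gene Hbb-y gave signal well above background on every array. It stood at -3.31, -3.46 and -3.62 in KLS, -2.85, -3.31 and -3.80 in PreMegE and -3.61, -2.91 and -3.37 in CFUe. In Ter119 its levels were 6.71, 6.23 and 6.84. The 3 progenitor fractions overlapped and Ter119 lay about 10 log2 units above them. In PreGM it gave -3.49, -3.21 and -3.89, in GMP -3.69, -4.16 and -3.61, and in Mac1Gr1 -2.37, -2.57 and -2.10. The change from CFUe to Ter119 was 9.89 ± 0.26 (adjusted p = 6.3e-15), or 949-fold, with 10.46 on the shared slide. This value fell within the range of those of the adult probes, but the folds were read at unlike parts of the scale. In Ter119 the Hbb-y probe stood at 2.36% to 4.46% of the scanner's saturation value and the adult probes at 43.4% to 70.2%. Whether the rises are alike was not tested.

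Hbb-bh1 probe 1 gave 2.08, 2.43 and 1.73 in Ter119 and was well above background on at most 2 of 3 arrays of every other fraction, where its means lay between -5.87 and -4.67. It was higher in Ter119 than in CFUe by 6.76 ± 0.67 (adjusted p = 7.6e-08). Against Mac1Gr1, in which no array was well above background, it was at least 112-fold higher (adjusted p = 5.8e-08; measured means 2.08 and -5.30). Hbb-bh1 probe 2 was dimmer and was detected in Ter119 alone, at -2.81, -1.0 and -2.35. It was at least 7.02-fold higher there than in CFUe (adjusted p = 4.0e-10) and at least 6.39-fold higher than in Mac1Gr1 (1.9e-09). Since both probes passed the filter on dim probes through Ter119 alone, these values describe that fraction and the probes' likeness is no support for its direction.

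Hba-x, the embryonic alpha-like gene, stood apart from the embryonic beta-like genes. In Ter119 it gave -3.86, -3.30 and -5.01, of which 1 array was well above background, and in CFUe -3.91, -4.96 and -5.22, also with 1 such array. The ranges overlapped. It was above background on 2 arrays of KLS, 1 each of PreMegE and Mac1Gr1 and none of PreGM or GMP, with means between -6.10 and -4.06. Without the filter on dim probes Ter119 and CFUe differed by 0.64 ± 0.58 (limma adjusted p = 0.36 over 41174 probes), so a change was not detectable at this signal.

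The embryonic and adult probes did not move together everywhere. From KLS to GMP the adult probes fell by 12.5-fold to 27.9-fold, whereas Hbb-y differed by -0.36 ± 0.26 (adjusted p = 0.28). Across the 18 arrays outside Ter119, the level of each adult probe correlated with that of each other adult probe at r = 0.942 to 0.998, and with those of the embryonic probes at r = 0.249 to 0.650, values that describe arrays of shared fractions, many with the embryonic probes near background. How much of the Hbb-y and Hbb-bh1 signal in Ter119 came from adult transcripts was not tested.

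Of 13 genes listed as repressors of embryonic globin genes, 2 were higher and 7 lower in Ter119 than in CFUe (median -1.14 beside 0.05 over all probes). Bcl11a fell by 2.55 on the log2 scale, from 4.71 ± 0.16 to 2.15 ± 0.17 (adjusted p = 7.1e-11), the nucleosome remodelling subunit Mbd3 fell by 2.68 and the orphan receptor Nr2c1 fell by 1.97. Sox6 moved the other way, from -2.60 ± 0.16 to 2.49 ± 0.10 (change 5.09 ± 0.24, adjusted p = 4.5e-12), and Zbtb7a was not called. Among the regulators, Gata1 fell by 2.33, Klf1 fell by 1.51 and Ldb1, which links enhancers to globin promoters, fell by 3.09, while E2f2 rose by 4.60 ± 0.16 and Nfe2 by 2.31 ± 0.22. Of 11 regulators, 3 were higher and 4 lower. Over all probes 57.2% were called and 29.2% were higher, so the regulator counts lay near the share of all probes. Some of these changes were also called in Mac1Gr1 against GMP: E2f2 (4.72), Nfe2 (2.30), Bcl11a (-1.46), Mbd3 (-2.43) and Nr2c1 (-2.75). Gata1, Klf1, Ldb1 and Sox6 were not called there. The part of other cells in the Ter119 levels of these genes was not tested.

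**Figure D4:**
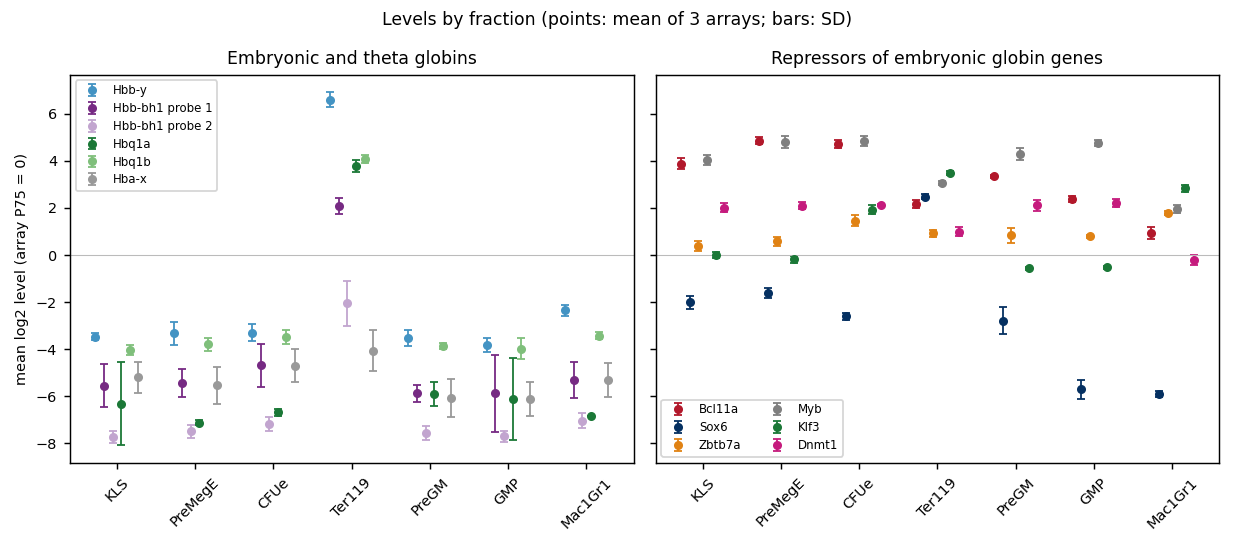
Mean levels of embryonic and theta globin probes (left) and of 6 listed repressors of embryonic globin genes (right) in each fraction; y axis, log2 level with the 75th percentile at 0; bars, SD over 3 arrays; levels of different probes are not comparable. Hbb-y, both Hbb-bh1 probes and both theta globins were highest in Ter119, Hba-x means lay between -6.10 and -4.06, and in Ter119 Sox6 was at its highest while Bcl11a was below its level in CFUe.

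On the myeloid side the adult globin probes fell, then rose. From KLS to PreGM all 5 adult probes were called lower (5 of 8 globin probes, beside 8.64% of all probes called and 6.53% lower). Hba-a1 changed by -2.89 ± 0.26 (adjusted p = 6.9e-07), a 7.40-fold fall, and the 4 Hbb-bt probes by -2.45 to -2.73. The 3 embryonic probes were not called. Alas2 fell by 2.68 on the log2 scale (± 0.29, adjusted p = 5.65e-06). Of 13 red cell genes, 4 were called lower (Rhd, -2.25, Hemgn, -1.36, Ank1, -1.26, and Epb42, which was above background in neither fraction), and the summed red cell level was 1.90 to 2.89 in KLS and 1.91 to 2.27 in PreGM. Here again 11 of 12 macrophage genes fell, and their summed level was 0.87 to 1.26 in PreGM. The part of such cells in the KLS level was not tested here either.

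From PreGM to GMP, 4 of 8 globin probes were called lower (10.4% of all probes were called, 6.36% lower): the Hbb-bt probes, by -1.18 ± 0.25 (probe 1), -1.45 ± 0.28 (probe 2), -2.35 ± 0.23 (probe 3) and -1.64 ± 0.29 (probe 4). Hba-a1 changed by -0.91 ± 0.26 (adjusted p = 0.016), just under 2-fold, and passed that limit without replicate 1 or 2 of PreGM or replicate 3 of GMP (-1.08, -1.08 and -1.0). On the slide that held both, the differences were -0.75 for Hba-a1 and -1.15, -1.43, -2.38 and -1.69 for the Hbb-bt probes. In GMP the summed red cell level was the lowest of the 7 fractions, at -0.29 to 0.39, with 3 of 13 genes, Epb42 among them, not above background on any array. Against KLS, GMP was lower on all 5 adult probes, by 3.65 to 4.8 on the log2 scale (5 of 8 globin probes called beside 21.7% of all, 13.7% lower). On the slide that held GMP and KLS, Hba-a1 differed by -3.95.

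Mac1Gr1 cells, the most mature of the myeloid side, had more adult globin signal than GMP. Of 8 globin probes 6 were called higher, where 56.7% of all probes were called and 29.1% were higher. Hba-a1 rose by 4.61 ± 0.26 (adjusted p = 4.6e-11), or 24.4-fold, Hbb-bt probe 1 by 4.28 ± 0.25, probe 2 by 4.77 ± 0.28, probe 3 by 4.99 ± 0.23 and probe 4 by 4.85 ± 0.29. Hbb-y rose by 1.48 ± 0.26 (adjusted p = 5.8e-05), and the Hbb-bh1 probes were not called. Compared with KLS, no adult probe was called (0.18 to 0.81, beside 57.3% of all probes called and 28.2% higher), and Hbb-y was higher by 1.12 ± 0.26 (adjusted p = 0.00082). That direction depended on the scale. On the scale set by spiked-in RNA, given below, the mean of Hbb-y was -7.22 in Mac1Gr1 and -6.71 in KLS. On it every adult probe also had a lower mean in Mac1Gr1 than in KLS (Hba-a1, -1.85 and -1.03). No slide held both Mac1Gr1 and GMP.

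Red cell transcripts rose alongside. Of 13 red cell genes, 7 were higher in Mac1Gr1 than in GMP and none lower (median 1.57, or 0.91 with 4 genes at their bounds), among them Rhd (3.76 ± 0.30), Slc4a1 (2.97 ± 0.22), Ermap (2.32 ± 0.64) and Ank1 (2.04 ± 0.30). Their summed level was 1.67 to 2.09 in Mac1Gr1, and 4 of them, Epb42 and Sptb included, were above background on no Mac1Gr1 array. Alas2 rose by 4.14 ± 0.29. Of the 10 assembly and care genes 3 were higher and 6 lower. Among the latter, Prdx2, a peroxidase of red cells, fell by 2.89 and Fech fell by 1.78. Markers of other cells moved in the same comparison. Of 12 macrophage genes 10 were higher and 1 lower, the former including the complement genes C1qc (4.96 ± 0.40) and C1qa (3.98 ± 0.39) and the iron exporter Slc40a1 (4.21 ± 0.35), and the summed macrophage level went from 3.21 to 3.42 in GMP to 5.47 to 5.84 in Mac1Gr1. All 6 B cell genes were higher, with a median of 2.60. The part of red cells, macrophages or B cells in the Mac1Gr1 globin signal was not tested.

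Progenitors of both lineages were also compared stage by stage. In PreMegE against PreGM the 5 adult probes were higher (5 of 8 globin probes, beside 12% of all called and 5.81% higher), Hba-a1 by 3.22 ± 0.26 (adjusted p = 7.3e-08) and the Hbb-bt probes by 1.79 to 2.80. On the 2 slides that held both, Hba-a1 differed by 3.90 and 2.10. In CFUe against GMP the same 5 probes were higher (26.3% of all called, 12.1% higher), Hba-a1 by 3.99 ± 0.26 and the Hbb-bt probes by 2.60 to 3.92. No embryonic probe was called in either comparison. Red cell genes stood higher as well, 9 of 13 in PreMegE and 12 of 13 in CFUe, with none lower.

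Because the 75th percentile is a relative zero, the changes were also read on a scale set by spiked-in RNA. That scale moved the median of all probes tested to -1.33 for Ter119 against CFUe, -1.86 for Mac1Gr1 against GMP and 0.99 for GMP against PreGM. On it the rise of the adult probes from CFUe to Ter119 was 6.08 to 8.70 and that of Hbb-y 8.51. From GMP to Mac1Gr1 the adult probes rose by 2.25 to 2.95, or 4.11 to 4.81 relative to the median. Hbb-y changed sign in that comparison, at -0.56 (adjusted p = 0.16), and stood 1.30 above the median. From PreGM to GMP Hba-a1 turned from -0.91 to 0.10 and only Hbb-bt probe 3 was still called (-1.34), while relative to the median the 5 adult probes lay 0.89 to 2.33 lower, much as on the 75th percentile.

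**Figure D5:**
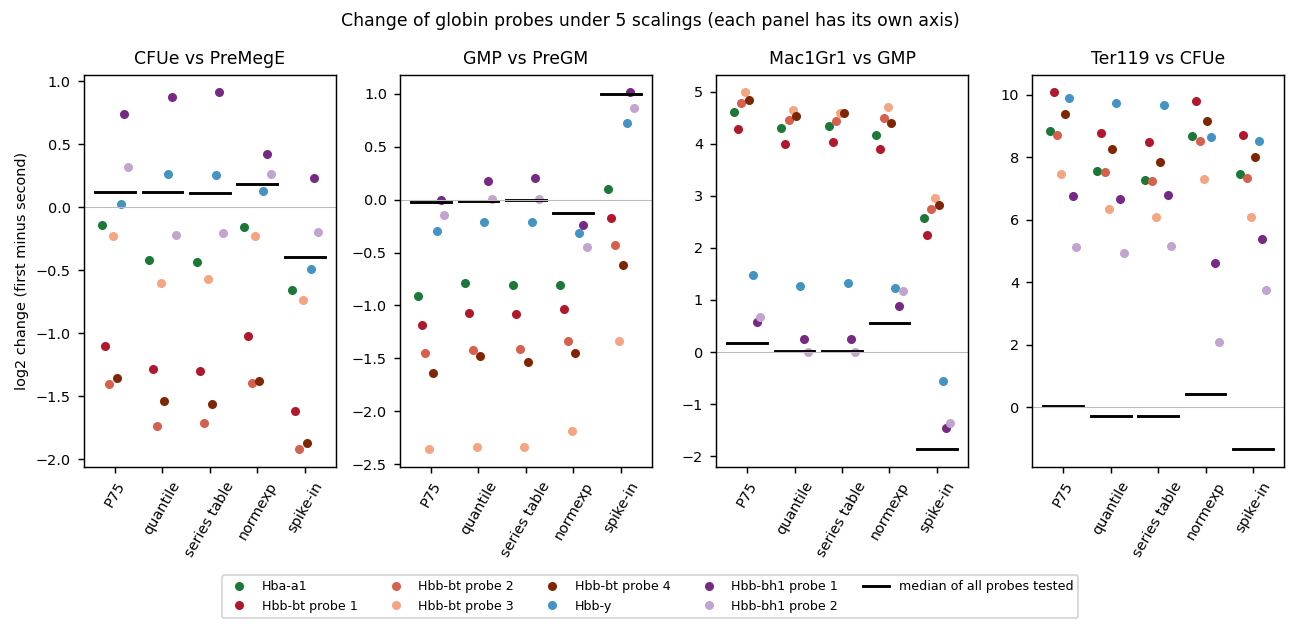
log2 change of 8 globin probes in 4 comparisons under 5 ways to scale the arrays (75th percentile, quantile, the deposited series table, normexp background correction, spike-in RNA); black bars, median of all probes tested; each panel has its own y axis. The spike-in scale shifted globin probes and median together, to a median of 0.99 for GMP against PreGM and -1.86 for Mac1Gr1 against GMP.

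The genes most like each adult globin probe over the 21 arrays were headed by Alas2 for 4 of the 5, at r = 0.99 for Hba-a1 and for Hbb-bt probe 1, and for Hbb-bt probe 3 by the ubiquitin-conjugating enzyme Ube2l6 (r = 0.97). Fbxo30, Tbcel, Afmid and Fhdc1 followed among those named. Alas2 itself was at 9.92 ± 0.26 in Ter119, -1.29 ± 0.19 in Mac1Gr1, -2.16 ± 0.31 in PreMegE, -2.49 ± 0.14 in KLS and -2.90 ± 0.09 in CFUe. In PreGM (-5.16) and GMP (-5.43) it was above background on only 2 arrays and 1 array. The order of the fractions was that of Hbb-bt probe 1. For Hbb-y the closest were Olfr1495, 1700019D03Rik, Vav2, Klc2 and Olfr1226 (r = 0.995 to 0.997). Hbq1b was among the 5 closest to each Hbb-bh1 probe (r = 0.96 and 0.98), with the glycine transporter Slc6a9 for probe 1 and Ranbp10 for probe 2. With Ter119 so far above the other fractions, these values rest largely on 3 arrays.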

How the data were processed

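Per the labels, total RNA was amplified, labelled with Cy3 together with spike-in RNA and hybridised to 1-colour Agilent arrays. The deposited scanner files give each spot's background-corrected intensity, and the authors' extraction software was Agilent Feature Extraction 10.7.1.1. A deposited table of the whole series, in log2 units and normalised between arrays by the authors, served as an alternative. Flags for outlier spots and for signal well above background come from the same files.

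Here, log2 intensity minus log2 of the 75th percentile over the 43379 non-control spots was used, outlier spots were left out, and spots of a probe were averaged. Probes were named through RefSeq accessions matched to a table of GRCm38.p6 (26690 of 41174 probes, 64.8%); the probe annotation names another build, mm9. limma 3.58.1 (R 4.3.3, lmFit and eBayes, two-sided) fitted 1 mean per fraction over 21 arrays, with 14 residual degrees of freedom. All adjusted p values are Benjamini-Hochberg values of that fit, and the procedure was tested on simulated data.

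Where no array of a fraction was well above background, folds are lower bounds: in the dim fraction each array contributed the probe's own signal or, if larger, that of the dimmest probe above background, and the brighter mean was divided by their mean. A summed level is log2 of the sum of a list's linear levels, with 1 probe per gene, that of the highest mean. Named are all globin probes, listed genes that were called (at most 4 per list and comparison, by size of change) or that stand beside a globin result, and the 5 genes of highest Pearson r per globin probe.

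Alternatives were quantile and spike-in scaling (7 of 10 spike sequences), normexp correction with an offset of 50, the series table, no filter on dim probes, outlier spots kept, the slide (9 slides) or the replicate number as a block, no minimum fold change, fits of only the fractions compared, and omission of each array in turn. All arrays were scanned on 1 day. The members, lists and tests were chosen with earlier results of these data known. Figures were drawn with matplotlib 3.10.9. Some listed genes are not reported here by name.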

Additional observations from a re-analysis of the deposited data

How the results depend on the processing

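Of 313 counts of called globin probes recomputed under the alternatives, 308 kept within 1.5 times the reported count, and of 2640 recomputed changes of single probes 2613 kept their direction and their side of the threshold. The counts that moved were those of probes called lower: 1 instead of 0 for PreMegE against KLS without the minimum fold change and on the spike-in scale, 1 instead of 4 for GMP against PreGM on the spike-in scale, 2 instead of 0 for Mac1Gr1 against GMP on that scale, and 0 instead of 3 for CFUe against KLS with the slide as a block. On the spike-in scale Mac1Gr1 against GMP reversed for Hbb-bh1 probe 1 (-1.46), Hbb-bh1 probe 2 (-1.36) and Hbb-y (-0.56). Neither Hbb-bh1 probe was well above background on any Mac1Gr1 array. In GMP only probe 1 was, on 1 array, so the Hbb-bh1 changes here lay at or near background. The spike-in scale shifted the median of all probes by construction. The cause of the slide's effect was not tested. Hbb-bt probe 3 passed 2-fold in CFUe against KLS under quantile scaling (-1.51), on the spike-in scale (-1.86), in the series table (-1.45) and without replicate 2 of KLS (-1.07) or replicate 3 of CFUe (-1.06). In the same comparison Hbb-bt probe 1 dropped under 2-fold with normexp (-0.99) and without replicate 1 or 3 of KLS or replicate 1 of CFUe (-0.97 to -0.85). Without replicate 3 of GMP, Hbb-bh1 probe 1 was called in Mac1Gr1 (1.47) and in CFUe (2.10) against GMP, again at signals near background.

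Samples of the same replicate number did not deviate together in all pairs (correlations -0.43 to 0.37, with no comparison above 0.1 in every pair), so the numbers were not taken to pair the samples. With the replicate block Hba-a1 changed by 8.84 from CFUe to Ter119, and the replicate block changed no call of a globin probe. Signals near background limit Hba-x and Hbb-bh1, and signals near the top of the scanner's range may limit the adult probes in Ter119.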
